A study of Mus musculus with 8 samples.

Results

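The multidrug efflux transporters examined here were 10 genes of the ATP-binding cassette (ABC) family, Abcc1, Abcc2, Abcc3, Abcc4, Abcc5, Abcc6, Abcb1a, Abcb1b, Abcb6 and Abcg2. They were listed by name and not by a rule on measured values, though earlier results of these data were known when they were chosen. All 10 were measurable in kidney, out of 13570 named genes tested. ABC transporters spend ATP to move substrates across membranes, and the drug-exporting members carry drugs, toxins and their glutathione, glucuronide and sulphate conjugates out of the cell. In the kidney, tubule cells take such compounds up from blood on one side and pass them into urine on the other, and several of these exporters sit in the urine-facing membrane of the proximal tubule. The transcription factor Nrf2, which Keap1 holds in check by targeting it for degradation, is known to drive glutathione synthesis, conjugating enzymes and several of these exporters.

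RNA from 8 kidneys, 1 for each mouse aged 8 weeks, was labelled with Cy3 and read on 1-colour Agilent mouse oligonucleotide arrays. The 4 NEKO mice (2 females and 2 males) were Keap1-/-::Nrf2 Flox/Flox::K5-Cre, lacking Keap1 in every tissue and Nrf2 in tissues where the Keratin5 promoter drives Cre, chiefly squamous epithelium. The 4 controls (2 females and 2 males) were Keap1+/-::Nrf2 Flox/Flox littermates, 3 with K5-Cre and 1, a female, without it, so every mouse carried the floxed Nrf2 alleles and the controls had 1 working copy of Keap1. The strain background was mixed, from 129Sv/J and C57BL/6J, and the RNA came from kidney tissue and not from sorted cells, so every cell type of the organ contributed to it.

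Levels below are log2 processed signals relative to the 75th percentile of all probes on the same array, so a level of 0 is the signal of a fairly bright probe and a difference of 1 is 2-fold. Levels of different genes cannot be ranked against each other, because each probe binds with its own strength. All females were hybridised on slide 2 and all males on slide 1, with 2 mice of each group on each slide, so that sex and slide cannot be told apart. On the 8 arrays, the share of probes clearly brighter than background ran from 61.8% to 65.7%. Keap1, the gene deleted in NEKO mice, averaged 0.20 ± 0.17 (SD, n = 4) in NEKO kidneys and 1.84 ± 0.07 (SD, n = 4) in controls, with the groups well apart. The markers of sex matched the labels in all 8 mice.

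A gene was called where the limma p, from a model of genotype and sex and adjusted by Benjamini-Hochberg over 19593 genes and unnamed transcripts, was under 0.05. None of the 10 transporters was called in either direction in this comparison. Over everything tested, 0.097% were called higher and 0.128% lower. At an unadjusted limma p under 0.05, 7 of the 10 were higher in NEKO kidneys and 0 were lower, beside a background of 7.39% higher and 10.6% lower. The estimated change was positive for all 10, where 43.8% of everything tested was positive, and its median was 0.59 on the log2 scale against -0.03 for everything tested. In whole-kidney RNA, a larger share of a cell type and more RNA for each cell of that type cannot be told apart.

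Every NEKO kidney lay above every control kidney for Abcc1, Abcc3, Abcc4 and Abcc5, each read from its brightest probe, while the groups overlapped for the other 6. Over everything tested, 3.89% of genes and transcripts separated in this direction and 5.39% in the other. With 4 mice against 4, such a separation always gives an exact two-sided permutation p of 0.0286, the smallest possible. That p therefore adds nothing to the separation itself. None of the 4 genes passed the limma threshold, with limma adjusted p from 0.110 to 0.245. In a model that lets the change differ by sex and averages it over females and males, which called 1.25% of everything tested higher, Abcc3, Abcc4 and Abcc1 were called (limma adjusted p = 0.00412, 0.027 and 0.0395).

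**Figure D1:**
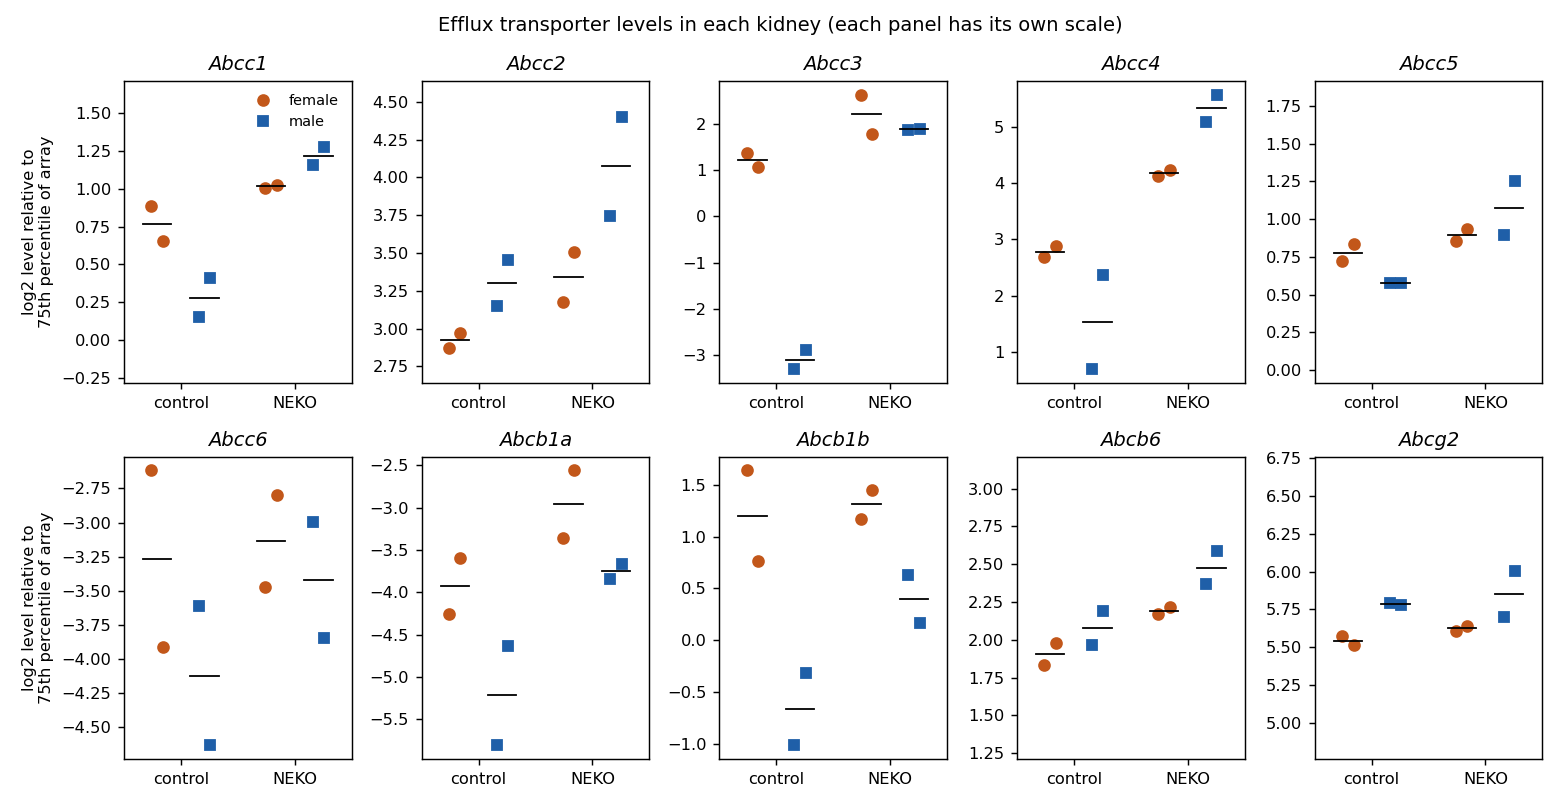
Level of each transporter in each of the 8 kidneys, as log2 signal less the array's 75th percentile, with females as circles, males as squares and black bars for the mean of each sex in each group. Abcc3 is low only in the 2 control males, Abcc4 is higher in all 4 NEKO kidneys, and the Abcg2 levels of both groups overlap.

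The largest estimates were those of Abcc3 and Abcc4, which encode the conjugate exporters MRP3 and MRP4. MRP4 lies in the urine-facing membrane of the proximal tubule and also carries cyclic nucleotides and nucleotide-like antiviral drugs, and MRP3 is a basolateral exporter of glucuronides, best known from liver and gut. Abcc4 levels were 2.68 and 2.89 in control females, 0.68 and 2.36 in control males, 4.13 and 4.24 in NEKO females, and 5.10 and 5.58 in NEKO males. Every NEKO value stood above every control value, the male NEKO kidneys were the highest, and 1 control male stood well below the other controls. The difference of the group means was 2.61 ± 0.57 (SE) on the log2 scale, a fold of 6.12 with a 95% interval from 2.42 to 15.5, and a limma adjusted p of 0.110. A second Abcc4 probe gave a difference of 2.68, and its values followed those of the first with a Pearson r of 0.994 across the 8 arrays.

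Abcc3 levels were 1.38 and 1.07 in control females but -3.30 and -2.89 in control males. In NEKO mice they were 2.63 and 1.79 in females, and 1.86 and 1.89 in males. The NEKO males thus stood beside the females, and the only low kidneys were those of the 2 control males. Over both sexes the difference was 2.98 ± 0.78 (SE), a fold of 7.88 with a 95% interval from 2.21 to 28.1, and a limma adjusted p of 0.145. The other Abcc3 probe was dim and well above background on only 2 arrays, both of NEKO kidneys, so it was not used. Its values of -7.08 and -7.28 in control males were again the lowest of the 8.

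Abcc1 and Abcc5 separated the groups by much smaller differences. Abcc1 encodes MRP1, a widely expressed exporter of glutathione conjugates. Its levels were 0.88 and 0.65 in control females, 0.15 and 0.41 in control males, 1.01 and 1.03 in NEKO females, and 1.15 and 1.27 in NEKO males. The 4 NEKO kidneys were close together and the control males were the lowest. The difference was 0.59 ± 0.16 (SE), a fold of 1.51 with a limma adjusted p of 0.151, and the other 2 Abcc1 probes gave 0.54 and 0.57. In those probes, however, 1 NEKO female fell within the range of the controls.

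Abcc5 encodes MRP5, an exporter of cyclic nucleotides and nucleotide analogues. Its levels were 0.72 and 0.84 in control females, 0.58 and 0.58 in control males, 0.85 and 0.93 in NEKO females, and 0.89 and 1.25 in NEKO males. The lowest NEKO female stood only just above the highest control. The difference was 0.31 ± 0.12 (SE), a fold of 1.24 with a limma adjusted p of 0.245. A probe for a different Abcc5 transcript gave 0.29, and its values followed those of the first less closely, with a Pearson r of 0.505. The remaining Abcc5 probe also gave 0.29. In both of these dimmer probes the groups overlapped, so only 1 of the 3 Abcc5 probes separated them.

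Among transporters of the urine-facing membrane, Abcc2 (MRP2), which exports glutathione and glucuronide conjugates, had levels of 2.87 and 2.97 in control females, 3.15 and 3.45 in control males, 3.18 and 3.50 in NEKO females, and 3.74 and 4.40 in NEKO males. Within each sex both NEKO kidneys were above both controls, but the 2 NEKO females and the 2 control males overlapped. The difference was 0.59 ± 0.18 (SE), a fold of 1.51 with a limma adjusted p of 0.174.

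P-glycoprotein, which exports bulky hydrophobic drugs, is encoded in mice by the close paralogues Abcb1a and Abcb1b. Abcb1a levels were -4.26 and -3.60 in control females, -5.81 and -4.63 in control males, -3.36 and -2.56 in NEKO females, and -3.84 and -3.67 in NEKO males. This was a dim probe, and the lowest control male was not well above background. The difference was 1.22 ± 0.32 (SE), a fold of 2.32 with a limma adjusted p of 0.145, and it was 0.61 when the median spot signal with a normexp background correction took the place of the processed signal. Abcb1b levels were 1.64 and 0.76 in control females, -1.01 and -0.31 in control males, 1.17 and 1.45 in NEKO females, and 0.63 and 0.16 in NEKO males. For Abcb1b the split by sex was plainer than that by genotype, with all 4 females above all 4 males. The genotype difference was 0.58 ± 0.30 (SE) with a limma adjusted p of 0.348. It ran from 0.35 without the lowest control male to 0.86 without the highest control female. Other Abcb1b probes gave 0.54 and, from a dim probe, 0.72. The sex difference, males minus females, was -1.39 ± 0.30 (SE) with a limma adjusted p of 0.0798.

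Abcg2 encodes BCRP, an exporter of urate and sulphate conjugates that is abundant in mouse kidney. Its levels were 5.57 and 5.51 in control females, 5.79 and 5.78 in control males, 5.61 and 5.64 in NEKO females, and 5.70 and 6.01 in NEKO males. The groups overlapped within males and lay close together within females. The estimated fold was 1.05 with a 95% interval from 0.916 to 1.21, and the limma adjusted p was 0.666. A second probe gave a log2 difference of 0.010.

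Abcb6, a porphyrin transporter linked to haem metabolism, had levels of 1.84 and 1.98 in control females, 1.96 and 2.19 in control males, 2.17 and 2.22 in NEKO females, and 2.37 and 2.59 in NEKO males. Only the highest control, a male, reached into the NEKO range. The difference was small, 0.34 ± 0.09 (SE), with a fold of 1.27 and a limma adjusted p of 0.150. Abcc6, whose loss causes ectopic mineralisation, had levels of -2.62 and -3.92 in control females, -3.61 and -4.64 in control males, -3.47 and -2.80 in NEKO females, and -3.00 and -3.85 in NEKO males. The mice of both groups were intermixed and varied widely, and the difference of 0.42 ± 0.39 (SE) had a limma adjusted p of 0.592. It ran from 0.155 without the lowest control male to 0.73 without the highest control female.

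**Figure D2:**
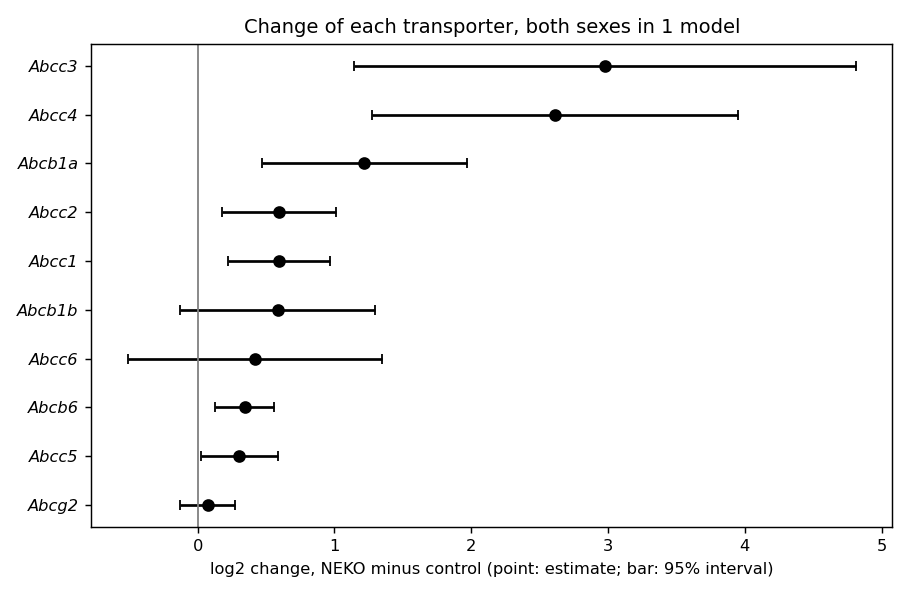
Log2 change of each transporter, NEKO minus control, from the model of genotype and sex, with points for the estimates and bars for 95% intervals. The estimates run from 0.072 for Abcg2 to 2.98 for Abcc3, and the intervals of Abcc6, Abcb1b and Abcg2 cross 0.

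Because the males and females of Abcc3 differed so clearly, the genotype was also compared within each sex (2 mice against 2), with the spread estimated over all 8 mice in a model that allows the change to differ by sex. These comparisons were added after the values were seen. Within males, 3 transporters were called, all of them higher in NEKO kidneys, beside 2.72% of everything tested called higher and 1.55% called lower. Abcc3 rose 31.4-fold (95% interval 19.1 to 51.5; 4.97 ± 0.29 (SE) on the log2 scale, limma adjusted p = 0.00273). Abcc4 rose 14.1-fold (95% interval 5.99 to 33.4; 3.82 ± 0.51 (SE), limma adjusted p = 0.0176). Abcc1 rose 1.91-fold (95% interval 1.52 to 2.41; 0.93 ± 0.14 (SE), limma adjusted p = 0.0226).

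Leaving out either NEKO male reduced the calls within males to 1, Abcc3, whose limma adjusted p ran from 0.00361 to 0.0231 as each mouse was left out in turn. The estimates of the others stayed close to those of all mice, 4.06 and 3.58 for Abcc4 (limma adjusted p = 0.0519 and 0.0946) and 0.99 and 0.87 for Abcc1 (limma adjusted p = 0.0628 and 0.11). Without the control male that was low for Abcc4, that gene's change within males was 2.98 and remained called (limma adjusted p = 0.025), while Abcc1 was no longer called (0.81, limma adjusted p = 0.119).

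Within females no transporter was called, beside 0.0408% of everything tested called higher and 0.0204% lower, and the lowest limma adjusted p was 0.469. Among the females compared, a single control lacked K5-Cre. The female changes were 0.98 ± 0.29 (SE) for Abcc3, a fold of 1.98, 1.40 ± 0.51 (SE) for Abcc4, a fold of 2.65, and 0.25 ± 0.14 (SE) for Abcc1. The Abcc3 value was 0.56 without the NEKO female of the highest level and 1.40 without the other NEKO female, and that of Abcc1 ran from 0.13 to 0.36 as each control female was left out. The estimate was larger in males than in females for 9 of the 10 transporters, all but Abcg2, with medians of 0.85 in males and 0.27 in females and a median of -0.03 in each sex over everything tested. The test of whether the change itself differed between the sexes called 0 of the 10, beside 0.0153% of everything tested. Its lowest limma adjusted p was 0.0627, for Abcc3, where the male change exceeded the female one by 3.99 ± 0.42 (SE), and the values were 2.42 (limma adjusted p = 0.293) for Abcc4 and 0.68 (limma adjusted p = 0.268) for Abcc1. At an unadjusted p under 0.05 these 3 passed, all with the larger change in males, beside 6.86% of everything tested.

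**Figure D3:**
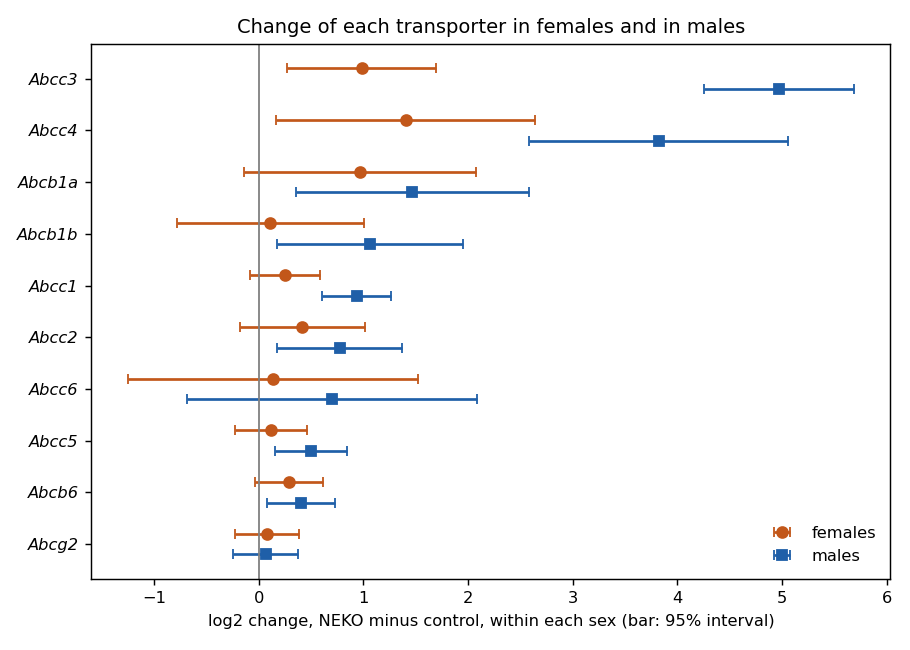
Log2 change of each transporter, NEKO minus control, within females (circles) and within males (squares), with 95% intervals. The male estimate for Abcc3 is 4.97 and the female one 0.98, and for Abcg2 the estimates lie together near 0.

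Abcc3 was also the only transporter called between the sexes within a genotype. Both control males carried K5-Cre and a single control female lacked it, so sex and Cre were not balanced among controls. For Abcc3, control males stood below control females by a log2 difference of -4.32 ± 0.29 (SE, limma adjusted p = 0.012), beside 0.0153% of everything tested called lower in control males and 0.0357% called higher. That call was lost when any 1 of the 4 control mice was left out, with limma adjusted p from 0.054 to 0.136 and a log2 difference from -4.53 to -4.11. In NEKO mice the difference between males and females was -0.33 ± 0.29 (SE), with a limma adjusted p of 0.588, and no transporter was called, beside 0.857% of everything tested called lower in NEKO males and 0.725% higher. For Abcc4 the sexes were ordered the other way round in the 2 groups, with a log2 difference, males minus females, of -1.26 in controls and 1.16 in NEKO mice, and neither difference was called (limma adjusted p = 0.321 and 0.294). The control value rested largely on the low male, and was -0.42 without that mouse and -2.10 without the other control male.

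Promoter sequences were taken for the members from RefSeq windows that reach from 250 bases before a transcription start to 50 after it (build GRCm38.p6), since Nrf2 is known to bind antioxidant response elements, whose core is TGACNNNGC. Of the 10 members, 7 had a window, with 10 windows in all, and the table used here held none for Abcc1, Abcc3 and Abcc6. The core was found on either strand in 4 of those 10 windows, belonging to Abcc4 at both of its starts, Abcc2 and Abcb1a, and 12.4% of all 32851 windows held it. It was not found in the windows of Abcb1b, Abcb6, Abcc5 and Abcg2. A match of these letters is a description and does not show a binding site. The stretches with a match are shown on the strand of the gene, with the core or its reverse complement in capitals. They end at the base before the start, except that of Abcb1a, a short stretch after the start.
Abcc4, first start, chr14:118706220-118706469, minus strand: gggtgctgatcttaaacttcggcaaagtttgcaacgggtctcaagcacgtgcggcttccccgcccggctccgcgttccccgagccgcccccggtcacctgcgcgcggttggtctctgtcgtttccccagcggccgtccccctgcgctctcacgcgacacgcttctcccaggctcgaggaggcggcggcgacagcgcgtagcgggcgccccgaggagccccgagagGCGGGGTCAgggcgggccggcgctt
Abcc4, second start, chr14:118676932-118677181, minus strand: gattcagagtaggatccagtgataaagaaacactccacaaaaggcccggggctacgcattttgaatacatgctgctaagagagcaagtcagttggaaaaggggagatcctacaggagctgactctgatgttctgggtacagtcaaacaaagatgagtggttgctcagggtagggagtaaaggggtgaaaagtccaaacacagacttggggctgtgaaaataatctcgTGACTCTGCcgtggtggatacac
Abcc2, chr19:43782058-43782307, plus strand: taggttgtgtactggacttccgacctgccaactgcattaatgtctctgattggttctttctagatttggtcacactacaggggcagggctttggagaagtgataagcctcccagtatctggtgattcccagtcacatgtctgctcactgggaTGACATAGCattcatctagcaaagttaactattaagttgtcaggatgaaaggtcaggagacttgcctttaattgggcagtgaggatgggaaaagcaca
Abcb1a, chr5:8567107-8567135, plus strand: ctctttgtccGCGGAGTCAgacagaacaa
The match began 25 and 23 bases before the start in the windows of Abcc4 and 98 bases before it in that of Abcc2.

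The other 29 ABC family genes tested served to place these 10, and include transporters of lipids, peptides and bile salts, channel subunits, and soluble members (Abce1 and the Abcf genes) that act in translation and transport nothing. None of those 29 was called in either direction, and at an unadjusted limma p under 0.05, 4 were higher and 2 lower, beside 7.39% and 10.6% of everything tested. Their median change was -0.0023 on the log2 scale, beside 0.59 for the multidrug exporters. The lowest p-values were those of Abcc9, a subunit of a potassium channel (0.95 ± 0.18 (SE), limma adjusted p = 0.0833), the sterol exporter Abcg1 (0.53 ± 0.16 (SE), limma adjusted p = 0.176) and Abca8b (0.97 ± 0.34 (SE), limma adjusted p = 0.21). NEKO kidneys stood wholly above controls for Abcg1 and Abca8b and wholly below for 1 gene, Abcf2, beside 3.89% and 5.39% of everything tested. Within males, 2 of the 29 were called higher, Abcg1 and Abca8b, and 1 lower, Abca4, beside 2.72% and 1.55% of everything tested.

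**Figure D4:**
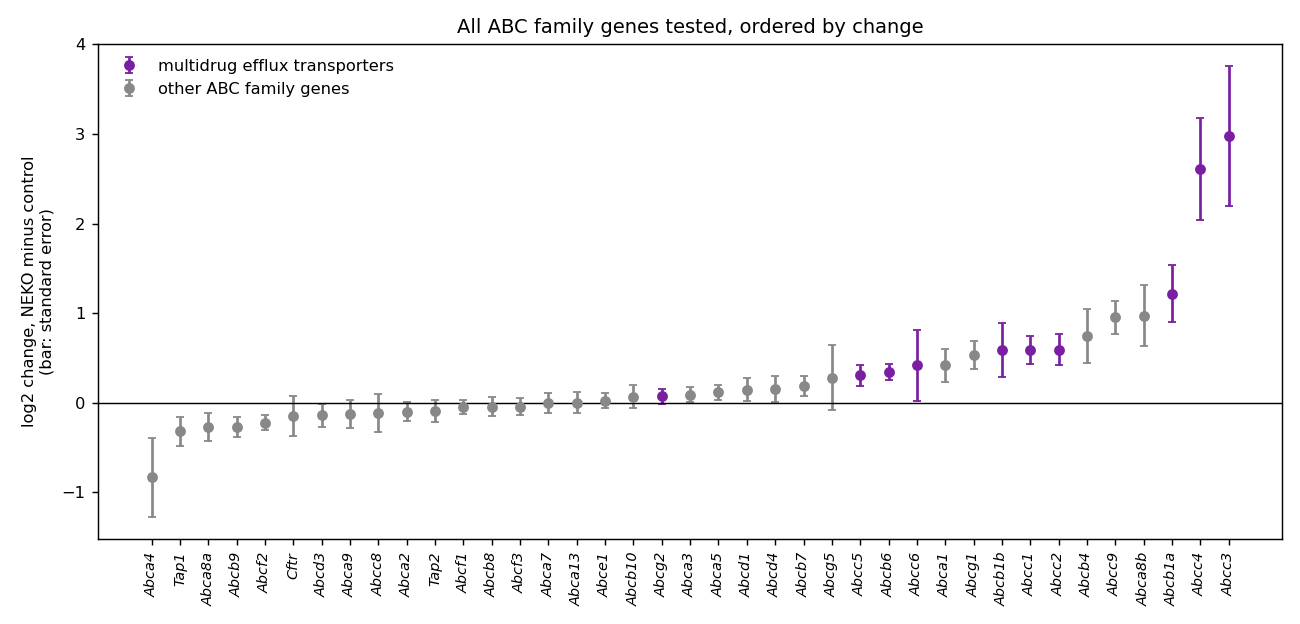
Log2 change, NEKO minus control, of the 10 multidrug exporters (purple) and the 29 other ABC family genes tested (grey), ordered by change, with bars for the standard error. Abcc3 and Abcc4 stand at the right end with 2.98 and 2.61, and the grey points are spread around 0.

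The exporters work downstream of enzymes that make their substrates. Of 36 listed genes for glutathione synthesis, glutathione, glucuronide and sulphate transfer, 32 passed the filter. Among these, the glucuronosyltransferase Ugt2b35, was well above background on all 4 NEKO arrays and on 0 control arrays, so it passed through the NEKO group alone and is left out of the counts that follow. Of the other 31, 1 was called higher and 0 lower, beside 0.097% and 0.128% of everything tested, and their median change was 0.90. The gene called was Gstp1, a glutathione transferase, which rose by 1.57 ± 0.20 (SE, limma adjusted p = 0.0486). In 9 of the 31 every NEKO kidney was above every control, beside 3.89% of everything tested. Within males 11 were called higher, beside 2.72% of everything tested, among them Gstm3 (2.30, limma adjusted p = 0.00857), Gsr, the glutathione reductase (1.66, limma adjusted p = 0.0348), and Ugdh, which makes UDP-glucuronate (1.78, limma adjusted p = 0.0165). The medians of the 31 were 0.39 in females and 1.42 in males.

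Carriers that bring organic ions into the tubule cell were listed together with exporters outside the ABC family. Of 25 listed, 24 were tested and none was called, 2 were higher at an unadjusted limma p under 0.05, beside 7.39% of everything tested, and 0 were lower, and the median change was 0.030. The lowest p-values belonged to the organic anion carriers Slc22a6 (0.34, limma adjusted p = 0.158), Slc22a8 (0.82, limma adjusted p = 0.204) and Slco1a6 (0.50, limma adjusted p = 0.29). Within males 1 was called lower, beside 1.55% of everything tested, the organic anion carrier Slc22a7, which fell by 5.93 on the log2 scale (limma adjusted p = 0.0384). Its difference within females was 1.56, in the other direction and not called (limma adjusted p = 0.669), and over both sexes it was -2.19 (limma adjusted p = 0.485).

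Of 7 scaffold proteins that anchor transporters in the membrane, all tested, none was called and none had an unadjusted limma p under 0.05, with a median change of 0.050. The lowest p-values were those of Ezr (-0.16), Slc9a3r1 (0.16) and Slc9a3r2 (0.13). Of 12 listed transcription factors and xenobiotic receptors known to act on these exporters, 11 were tested and none was called. Only Ahr, the dioxin receptor, had an unadjusted limma p under 0.05 (0.37, limma adjusted p = 0.163), followed by the xenobiotic receptor Nr1i2 (0.32) and its partner Rxra (0.18). As a measure of Nrf2 activity, 15 of 16 listed targets were tested and 2 were called higher, beside 0.097% of everything tested. They were the glutathione peroxidase Gpx2 (5.40 ± 0.46 (SE), limma adjusted p = 0.0106) and the thioredoxin reductase Txnrd1 (1.30 ± 0.17 (SE), limma adjusted p = 0.0486). The median change of those 15 was 0.70 in females and 1.75 in males. Within males 10 were called higher, beside 2.72% of everything tested. Gclc, Gclm, Gsta1, Gstm1 and Ugdh also stand in the list of glutathione and conjugation genes above, so these lists are not separate evidence. Over both sexes 14 of the 15 changes were positive, all but that of Hmox1 (-0.08), beside 43.8% of everything tested.

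Markers of kidney cell types were read beside these results, and none in any list was called in the model of both sexes. The median change was -0.0018 for 10 proximal tubule markers and -0.93 for 4 markers of its straight part. The medians of the straight part were -1.49 in males and 0.97 in females. The summed level of a list is the log2 of the summed signals of its genes, so the brightest probes weigh most. For the straight part it was 6.64 to 7.11 in control males and 5.08 to 5.43 in NEKO males. In females it was 3.64 to 4.61 in controls and 4.48 to 5.65 in NEKO mice. Of its 4 markers, only Slc22a7 and Cyp7b1 changed direction between the sexes. Slc7a13 was lower in NEKO mice of both sexes (-0.88 in males, -2.05 in females) and Slco1a6 higher (0.38 and 0.61). Sex alone set some of these markers apart. In controls, Slc7a13 averaged 4.85 in males and 0.78 in females, and Cyp7b1 4.66 and -0.44. Within males, where Abcc3, Abcc4 and Abcc1 were called, the median change was 2.32 for 6 urothelium markers. Of these, Upk1b, Upk2 and Upk3a were called higher, beside 2.72% of everything tested. Only Upk1a was lower within males (-0.20, not called). Over both sexes the Upk1a change was -0.71, with every NEKO kidney below every control, as for 5.39% of everything tested. The summed urothelium level was 0.23 to 0.88 in control males, 2.54 to 2.59 in NEKO males, 1.15 to 1.61 in control females and 1.34 to 1.58 in NEKO females. The median change within males was 1.15 for 5 fibroblast markers, with 3 called higher, beside 2.72% of everything tested. Their summed levels were 4.28 to 4.65 in control males and 5.51 to 6.01 in NEKO males. Within females the fibroblast median was -0.38, with summed levels of 5.07 to 5.19 in controls and 4.73 to 4.87 in NEKO mice.

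Intercalated cell markers had a median change of -1.12 within males, with 3 of 5 called lower, beside 1.55% of everything tested. Their summed level was 5.15 to 5.17 in control males and 2.64 to 3.68 in NEKO males. Within males Slc26a4 changed most of the 5 (-3.04) and Foxi1 least (-0.14). For the other lists the medians within males were 1.84 for 4 neutrophil markers, 0.41 for 6 macrophage markers, 0.54 for 5 lymphocyte markers, 0.23 for 8 endothelial and 0.17 for 5 podocyte markers. They were 0.70 for 3 liver markers, -0.44 for 5 markers of the thick ascending limb, -1.09 for 3 of the distal convoluted tubule, and -0.17 for 5 principal cell markers. Single markers called within males were Lyz2 (macrophage, 2.67), Cd3g (lymphocyte, 1.20) and Slc13a3 (proximal tubule, 1.39), which were higher, and Kcnj1 (thick ascending limb, -0.94), Hsd11b2 (principal cell, -1.46) and Slc22a7 (straight part), which were lower. Over everything tested, 2.72% were called higher within males and 1.55% lower. The part of these lists in the changes of the transporters was not tested.

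Across the 8 arrays, the genes whose levels followed Abcc4 most closely among 13518 compared were Nrcam, a cell adhesion molecule (Pearson r = 0.997), Cdr2l (Pearson r = 0.995) and Vat1 (Pearson r = 0.986). Their changes in NEKO kidneys were 0.67, 0.64 and 0.65 on the log2 scale, smaller than the 2.61 of Abcc4. Those closest to Abcc3 were the actin-bundling gene Fscn1 (Pearson r = 0.979), Arhgap31 (Pearson r = 0.976) and Arhgap23 (Pearson r = 0.972). The arrays compared share the same split by genotype, sex and slide, so these values are a description of 8 kidneys.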

How the data were processed

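Kidney RNA of 8 mice was measured on 1-colour Agilent arrays, and replicates are single mice. The scanner files deposited were written by Feature Extraction 10.7.3.1, whose processed signal is an intensity less background, with no scaling across arrays. The authors' matrix holds log2 values, of which 99.9% lay within 0.01 of the levels computed here after centring each probe on its median over the arrays. Its column medians ran from -0.0384 to 0.0763, and it served only as an alternative.

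Here control and outlier spots were left out, spots of a probe were averaged, and log2 intensity was taken less the array's own 75th percentile, control probes aside. Of 41174 probes, 26690 were named through RefSeq accessions. A filter kept probes marked well above background on 4 or more arrays with values for 6 or more, and the brightest that passed stood for its gene, which left 13570 named genes and 6023 unnamed transcripts. The members had 19 probes, of which 18 were kept. No probe was saturated, and the number of arrays limits the precision. limma 3.58.1 in R 4.3.3 fitted genotype and sex, with Benjamini-Hochberg adjustment over all 19593. The methods of the study name an unpaired test that allows unequal variances, tried as an alternative and called the methods' test. Single genes were compared by exact two-sided permutation. Only the fit of genotype and sex, without a term for a change that differs by sex, was tested on simulated data.

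The members, gene lists and alternatives were chosen with earlier results of these data known. Named genes were all members, Keap1, in each list the genes called or else the 3 with the lowest p, the 3 genes most correlated with each of the 2 members of lowest p, and markers of cell types that moved with a member. Abcf2, Abca4, Gstm3, Gsr, Ugdh, Hmox1, Slc22a7, Slc7a13, Cyp7b1, Upk1a, Slc26a4, Foxi1, Lyz2, Cd3g, Slc13a3, Kcnj1 and Hsd11b2 were named after their values were seen. Gclc, Gclm, Gsta1 and Gstm1 were named because they stand in more than a single list. Alternatives changed the background correction, normalization, probe filter, probe summary, covariates, variance model, test, threshold, values and mice, one at a time, except that normexp ran on the median spot signal and so changed the signal read along with the correction. Comparisons within each sex, their repeats under those settings, a fit of each kept probe, and leaving Ugt2b35 out of its list were added after seeing the data.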

Additional observations from a re-analysis of the deposited data

Results flagged for a closer look

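Among 22 groups of 4 values looked at, 1 held a value far from the others by Dixon's criterion, where chance gives about 1 group in 20. This was Abcc3 in NEKO kidneys, where 1 female stood at 2.63 and the other 3 mice between 1.79 and 1.89, so that its gap took up 0.873 of the range of the group. Its cause was not tested.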

How the results depend on the processing

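The groups held 4 mice each, 2 of each sex, and Abcb1a and Abcc6 were read from dim probes. No estimate of a transporter changed sign when both sexes were fitted together. None of the 10 was called lower under any alternative, and the number called higher was 0 under all alternatives but 2. It was 3 when a genotype-by-sex term was fitted and the effect averaged over both sexes (Abcc1, Abcc3 and Abcc4, limma adjusted p = 0.0395, 0.00412 and 0.027; the other ABC genes then gave 2), and 4 under the methods' test without adjustment (Abcc1, Abcc4, Abcc5 and Abcb6; the other ABC genes gave 2 higher and 1 lower). Leaving out each mouse gave 0 to 0. Over everything tested, 19 were called higher and 25 lower; these became 48 and 98 with array weights, 245 and 268 averaged over the sexes, 8 and 12 with detection on all 8 arrays, 40 and 52 with a trend and robust variance, 69 and 113 with normexp on the median signal, 0 and 1 under the methods' test with adjustment and 944 and 1268 without, and 120 and 238 at an adjusted p under 0.1. Without a sex term 16 were lower, and without each mouse in turn 9 to 24 were higher and 8 to 25 lower. A genotype change that differed between the sexes was called for 1 member with normexp and for 1 with a trend and robust variance, against 0. Within males the members called numbered 1 to 3 as mice were left out, and between the sexes in controls 0 to 1. The slide as a block is the same model as the sex term. Detection on all 8 arrays left Abcb1a without a value. Dropping the sex term, averaging over the sexes, the slide as a block and the methods' test give no test of whether the change differed by sex. No paired analysis was made, because the sample labels state no litter or pairing of mice. The causes were not tested.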
